A study of Mus musculus with 3 samples.

Results

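The genes Tcf7, Lef1, Bach2, Ccr7, S1pr1 and Il7r, a set known from naive and memory T cells, were followed in immune cells of mouse brains that carried breast cancer metastases and of naive brains. They were taken by gene symbol, and all 6 were found among the 19208 genes of the metastasis-bearing table and the 17453 genes of the naive table. In the mm10 mouse genome (GRCm38), RefSeq places Tcf7 and Ccr7 on chromosome 11, Lef1 and S1pr1 on chromosome 3, Bach2 on chromosome 4 and Il7r on chromosome 15, each as a protein-coding gene.

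The study measured RNA, 35 surface antibody tags and hashtags (antibody barcodes that tell the brains apart) in single cells enriched on a density gradient, 1 hemisphere per mouse. Per the labels the mice were of strain C57Bl/6, and per the submitters' text they were female and 2 to 3 months old. Metastasis-bearing mice had received E0771 mammary tumour cells through the carotid artery about 2 weeks earlier, and naive mice had not. In each state 2 brains were homozygous (Cx3cr1-/-) and 2 heterozygous (Cx3cr1+/-) for loss of Cx3cr1, the fractalkine receptor of microglia, so every mouse carried at least 1 lost allele and no wild-type brain was compared.

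TCF-1 (from Tcf7) and LEF-1 (from Lef1) are transcription factors of the HMG-box family that bind DNA in naive T cells and in the self-renewing part of memory and exhausted T cells. BACH2 is a repressor that holds back effector differentiation. CCR7 is the chemokine receptor that leads lymphocytes into lymph nodes, S1PR1 is the sphingosine 1-phosphate receptor with which they leave tissues, and the alpha chain of the interleukin 7 receptor (from Il7r) passes a survival signal. T cells that settle in a tissue or turn into effector cells are known to lower several of these genes, while gamma-delta T cells of the interleukin 17 type keep much Il7r.

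Because TCF-1 and LEF-1 bind a known core sequence, promoters of the set are shown with that core marked. The RefSeq promoter table (GRCm38.p6), which gives 250 bases before and 50 after a start site, held windows for 4 of the 6 genes, namely 2 for Tcf7, 4 for Lef1, 1 for Bach2 and 1 for Il7r. The TCF and LEF core CTTTG was searched on both strands and is in capitals, in either orientation. The windows shown are the first of Lef1 at chr3:131110047-131110346 (plus strand) and that of Il7r at chr15:9529827-9530126 (minus strand), genes that both differed with Tcf7 detection below.
Lef1 promoter: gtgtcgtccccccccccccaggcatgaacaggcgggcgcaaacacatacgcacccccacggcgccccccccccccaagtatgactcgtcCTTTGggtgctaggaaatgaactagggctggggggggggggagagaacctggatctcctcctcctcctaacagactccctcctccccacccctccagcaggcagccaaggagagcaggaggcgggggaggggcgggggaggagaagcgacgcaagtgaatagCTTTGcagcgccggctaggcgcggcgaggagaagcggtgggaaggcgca
Il7r promoter: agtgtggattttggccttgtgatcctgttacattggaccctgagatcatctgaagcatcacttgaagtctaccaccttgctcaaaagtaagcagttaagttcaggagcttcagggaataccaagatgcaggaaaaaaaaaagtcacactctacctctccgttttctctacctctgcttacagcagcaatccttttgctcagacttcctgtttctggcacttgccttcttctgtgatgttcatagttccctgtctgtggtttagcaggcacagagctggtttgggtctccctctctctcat
The Lef1 window held the core 2 times, once starting 161 bases before the start site, while the Il7r window held it 0 times. The Bach2 window held it 1 time, and both Tcf7 windows 0 times. The core stands in 17718 of 32851 promoter windows of the same length, which is 53.9%, so a match is common. The forkhead motif GTAAACA, also searched on both strands, stands in 3.65% of windows and was found in 1 of the 8 windows of these genes, the second of Tcf7. These matches describe letters and not binding.

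The 1138 barcodes common to both tables were dropped, which kept 8443 cells from metastasis-bearing and 2736 from naive brains. The authors' T cell cluster held 1201 cells in metastasis-bearing brains (T-like), and all 9 T cell markers were detected in it, with a sum of 4679 to 5425 CPM per brain (the gene's share of the summed depth-corrected UMIs, the barcoded RNA molecules, times 1000000). In naive brains the matching cluster held 248 cells and is called T/NK-like, because natural killer (NK) markers summed to 1389 to 2908 CPM there, against 159 to 375 CPM in T-like cells of metastasis-bearing brains. Homozygous metastasis-bearing brains gave 234 and 159 T-like cells with median raw UMIs of 5518.5 and 5450, and heterozygous ones gave 102 and 706 with medians of 4773 and 5431.5. The genotype labels were checked on Cx3cr1 in microglia-like cells, which read 114 and 31.6 CPM in homozygous and 1363 and 1464 CPM in heterozygous metastasis-bearing brains.

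In metastasis-bearing brains Il7r and Tcf7 were higher in T-like cells than in every other class, whereas Lef1 and S1pr1 were higher in vascular cells and Ccr7 and Bach2 in B-like cells. The clusters were made from all genes, so these levels are a description without a test; they are means over brains with at least 20 cells of a class. Tcf7 averaged 107 ± 20.3 CPM in T-like cells, 44.6 ± 9.2 CPM in NK-like cells and 33.1 ± 3.94 CPM in vascular cells (SD, n = 4 brains each). Lef1 averaged 52.0 ± 11.8 CPM in T-like cells, 141 ± 39.3 CPM in vascular cells and 20.9 ± 8.18 CPM in NK-like cells. LEF-1 is also a factor of the Wnt pathway, which brain endothelium uses. The lowest vascular brain, at 94.1 CPM, lay above the highest T-like brain, at 66.3 CPM. The share of all genes without overlap between these classes was not computed.

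Bach2 averaged 11.2 ± 5.39 CPM in T-like cells, below the 16.2 ± 7.93 CPM of microglia-like and the 21.1 ± 6.49 CPM of NK-like cells, although the spreads overlapped. The 1 brain with enough B-like cells gave Bach2 at 73.4 CPM; BACH2 is also a factor of mature B cells. Ccr7 averaged 71.3 ± 2.93 CPM in T-like cells, with 528 CPM in the B-like cells of that 1 brain. A cluster of few UMIs that stayed unnamed had Ccr7 at 67.4, 125, 202 and 551 CPM in its 4 brains.

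S1pr1 averaged 101 ± 29.3 CPM in T-like cells and 278 ± 94.5 CPM in vascular cells, where the receptor serves the endothelial barrier. The T-like and vascular brains did not overlap, as the lowest vascular brain had 165 CPM and the highest T-like brain 131 CPM. As for Lef1, the share of all genes without such overlap was not computed. Il7r averaged 599 ± 36.9 CPM in T-like cells, and the next class, monocyte and macrophage-like cells, had 94.9 ± 15.8 CPM.

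**Figure D1:**
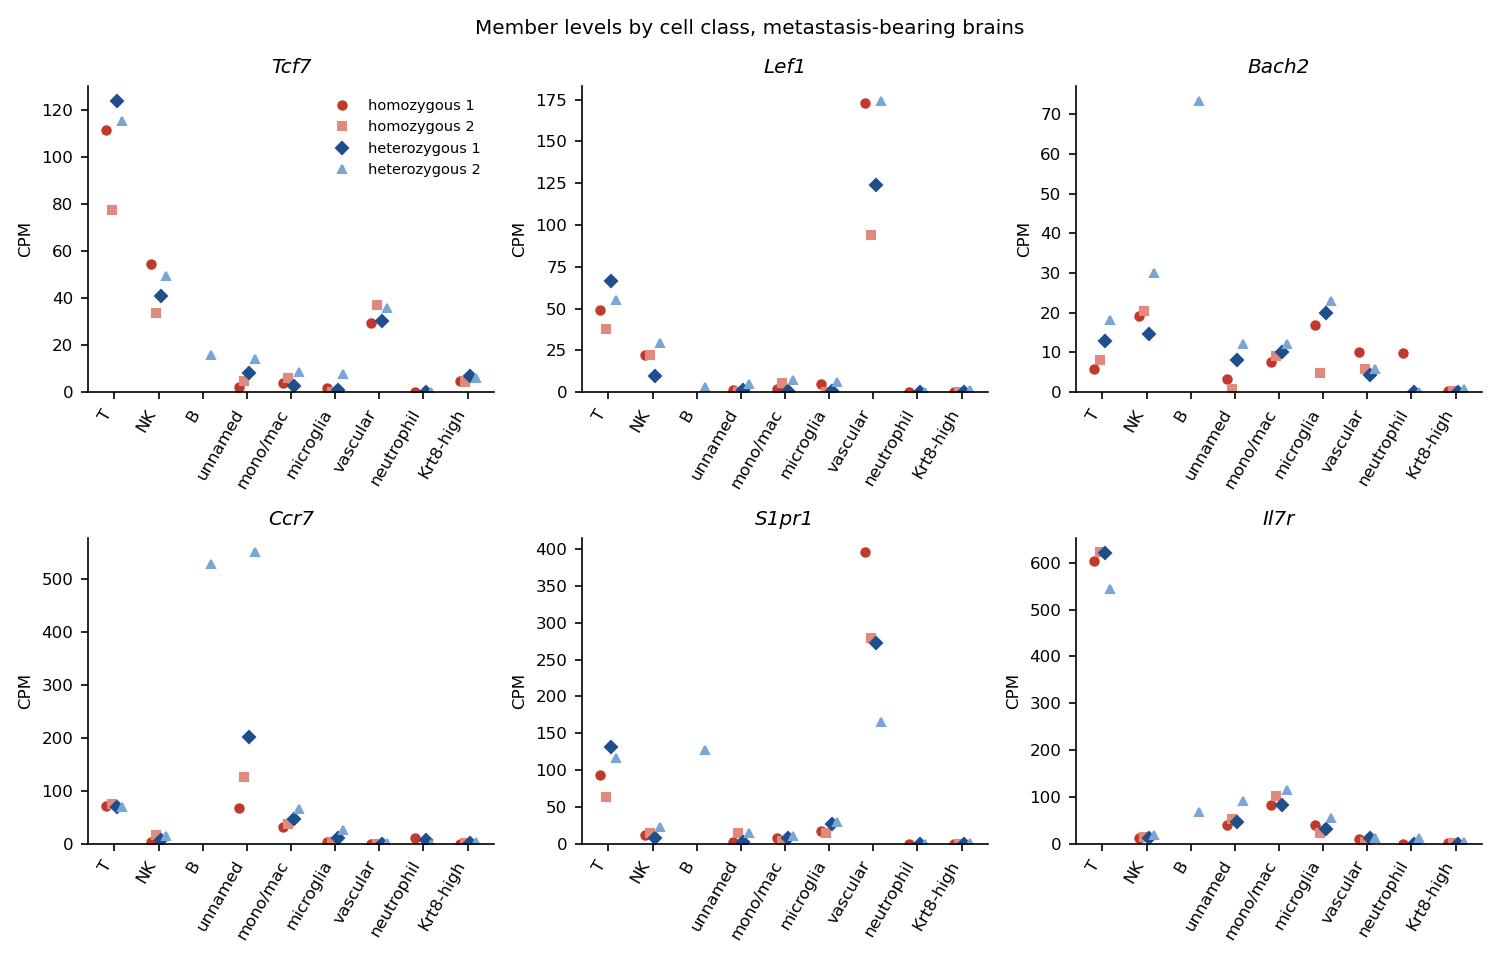
CPM of the 6 genes by cell class in metastasis-bearing brains, 1 point per brain with at least 20 cells of the class. Tcf7 and Il7r are highest in T-like cells, at 107 and 599 CPM on average, whereas vascular cells lie above T-like cells for Lef1 and S1pr1.

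Within T-like cells the genes were detected in very different shares of cells. Here and in the splits below, a gene was detected in a cell if its depth-corrected UMIs were above 0. Raw UMIs per gene were not used, so detection can differ from that in raw counts. A Tcf7 UMI was found in 43.3% of T-like cells (exact Clopper-Pearson 95% interval 40.5 to 46.2%), against 1.99% of the 654 microglia-like cells, which should lack it. The shares for Lef1 were 25.5% against 1.83%, for Ccr7 17.2% against 2.6%, for S1pr1 39.6% against 18.3% and for Il7r 74.6% against 23.2%. Bach2 was found in 11.2% of T-like and 18.7% of microglia-like cells, and whether microglia express it was not tested. Median raw UMIs were 5409 in T-like and 8470 in microglia-like cells, and the intervals cover counting error only. Of the 1201 T-like cells, 97 held none of the 6 genes, 357 held 1, 338 held 2, 229 held 3, and 97, 66 and 17 held 4, 5 and all 6.

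T-like cells were split by their own RNA. Cd4 without Cd8a was detected in 210 cells, Cd8a without Cd4 in 247, both in 8 and neither in 736; of the last, 424 held Trdc, the constant gene of the gamma-delta T cell receptor. Of the Cd4-detected cells, 146 lay in the authors' antibody gate for CD4, 0 in that for CD8 and 64 in neither. Of the Cd8a-detected cells, 182 lay in the CD8 gate, 1 in the CD4 gate and 64 in neither, while of the cells with neither RNA 103 lay in the CD4 and 40 in the CD8 gate. Cd8b1, the partner chain of CD8, averaged 4.63 CPM in Cd4-detected and 646 CPM in Cd8a-detected cells (log2 fold change -5.50). It passed the filter on low values, a mean above 10 CPM, through the Cd8a-detected cells, so its direction was favoured by the filter.

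Cd4-detected cells carried more S1pr1 and more Il7r than Cd8a-detected cells of the same brains, while Tcf7 did not pass the test. S1pr1 stood at 140.1 and 60.1 CPM in homozygous and 185 and 185 CPM in heterozygous brains among Cd4-detected cells. Cd8a-detected cells had S1pr1 at 43.9 and 45.0 CPM in homozygous and 49.7 and 72.3 CPM in heterozygous brains. S1pr1 was higher in Cd4-detected cells in each of the 4 brains, although the lowest Cd4-detected value lay under the highest Cd8a-detected one.

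The fit compared the sets within brains with limma on log2(CPM + 10), a scale that understates the change of low genes, and adjusted p over 6555 genes. S1pr1 averaged 143 ± 59.1 CPM in Cd4-detected and 52.7 ± 13.3 CPM in Cd8a-detected cells (SD, n = 4 brains), with a log2 fold change of 1.20 (SE 0.22, limma adjusted p = 0.00532). Il7r stood at 456 and 327 CPM in homozygous and 781 and 409 CPM in heterozygous brains among Cd4-detected cells. In Cd8a-detected cells Il7r had 238 and 298 CPM in homozygous and 335 and 223 CPM in heterozygous brains. Its log2 fold change was 0.77 (SE 0.15, limma adjusted p = 0.00768), and Cd4-detected cells were higher in each brain.

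Ccr7 did not pass the test. It averaged 87.9 ± 36.4 CPM in Cd4-detected and 135 ± 22.2 CPM in Cd8a-detected cells, a log2 fold change of -0.62 (95% interval -1.03 to -0.20, limma adjusted p = 0.0964). Its values were 80.3, 140.2, 56.2 and 74.7 CPM in Cd4-detected cells, against 160.2, 126, 108 and 143 CPM in Cd8a-detected cells, in the order of 2 homozygous and 2 heterozygous brains. The second homozygous brain alone had more in Cd4-detected cells. Of 14 alternatives, 11 left Ccr7 short of the threshold (limma adjusted p up to 0.347) and 3 called it lower. Among the 3 was the fit without that brain, the only one of the other sign (log2 fold change -0.87, limma adjusted p = 0.0247). Another took cells chosen by the antibody gates (-0.76, limma adjusted p = 0.0111).

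The 3 transcription factor genes did not pass either. Tcf7 stood at 106, 110.2, 124 and 149 CPM in Cd4-detected cells and at 105, 101, 154 and 113 CPM in Cd8a-detected cells, with a log2 fold change of 0.05 (95% interval -0.29 to 0.39, limma adjusted p = 0.907). Lef1 averaged 45.7 CPM in Cd4-detected and 66.1 CPM in Cd8a-detected cells (limma adjusted p = 0.316). Bach2 averaged 10.4 and 13.3 CPM in the same order (limma adjusted p = 0.725). So 2 of the 6 genes were higher and 0 lower at an adjusted p under 0.05, where 5.39% of all genes tested were called (3.46% higher and 1.92% lower). S1pr1 and Il7r also had the same sign in every brain, as did 26.2% of all genes. The median log2 fold change of the 6 genes was -0.12, and that of all genes 0.09. Of all calls 227 were higher and 126 lower, and with median-ratio scaling 179 and 171.

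**Figure D2:**
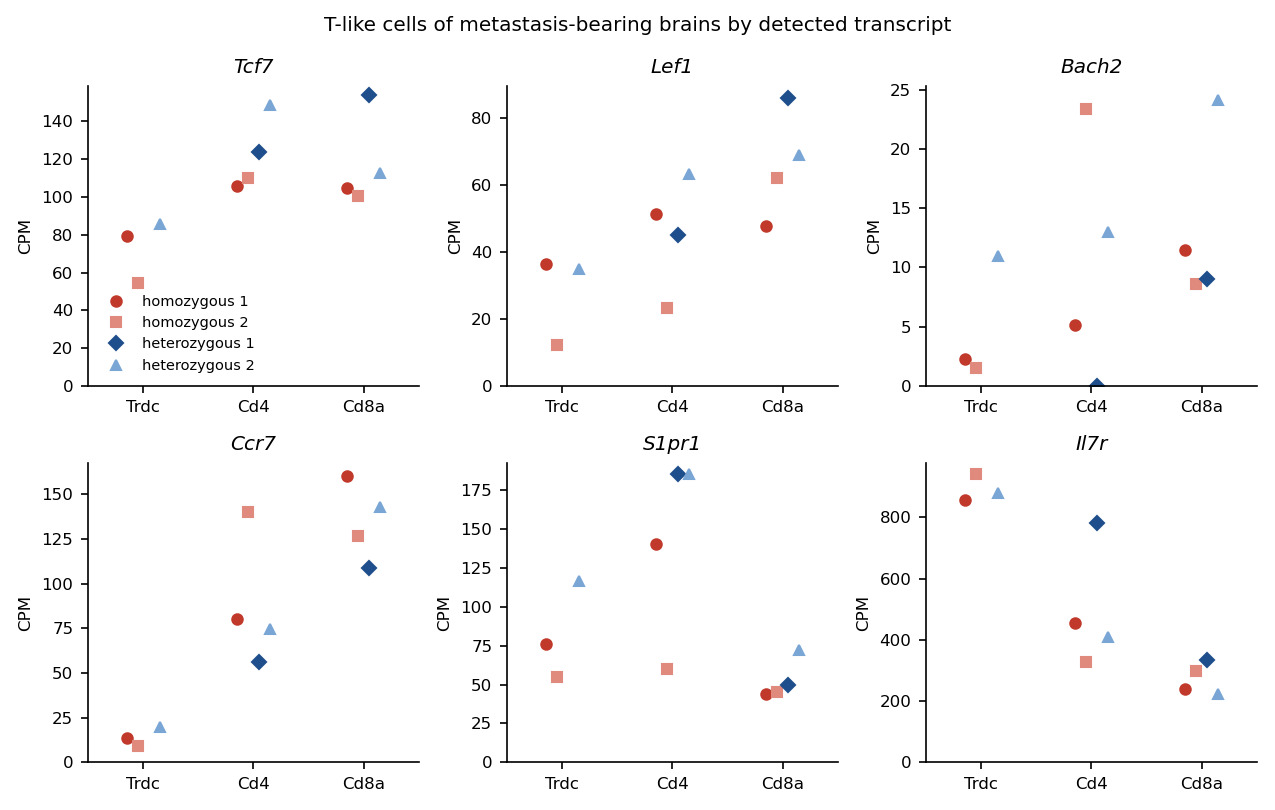
CPM of the 6 genes per brain (axes from 0) in Trdc-detected, Cd4-detected and Cd8a-detected T-like cells of metastasis-bearing brains, for sets of at least 10 cells. S1pr1 is higher in Cd4-detected than in Cd8a-detected cells of every brain, and Ccr7 in Trdc-detected cells lies far under both other sets.

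Around these genes, a list of 23 tested genes of quiescence and lymphoid recirculation had 2 higher and 3 lower in Cd4-detected cells, with a median log2 fold change of -0.01. Bcl2, a survival gene, was lower at 41.0 CPM in Cd4-detected against 358 CPM in Cd8a-detected cells (log2 fold change -2.82), and Dapl1 and Txk were lower by -1.57 and -0.77. Itgb7, an integrin chain of gut homing, was higher by 1.17. Of 24 effector genes 3 were higher and 10 lower (median -0.65), with the chemokine gene Ccl5 (-2.39), the NK receptor chain Klrd1 (-3.28), Nkg7 (-1.84) and the granzyme gene Gzma (-3.26).

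Of 11 genes of regulatory and activated CD4 T cells, 10 were higher and 0 lower in Cd4-detected cells, with a median of 2.14. Maf averaged 350.1 against 17.1 CPM (log2 fold change 3.78), Tnfrsf4 (OX40) 1048 against 41.0 CPM (4.74), and the costimulatory gene Icos 671 against 202 CPM (1.68). Foxp3, the factor that defines regulatory T cells, averaged 112 against 1.01 CPM. Of 11 residency genes 3 were higher and 3 lower (median -0.26), with the chemokine gene Xcl1 at 22.4 against 722 CPM (-4.83), Crtam at -2.10 and Rgs1 at 0.63. Of 11 inhibitory receptor and exhaustion genes 2 were higher and 3 lower (median -0.02), with Ctla4 at 2.45, Cd160 at -3.02 and Pdcd1 at -0.78. Of 10 cycling genes 2 were higher and 0 lower (median 0.38), namely Cdk1 (1.25) and Mki67 (1.14). Foxp3 in Cd8a-detected cells and Cd160, Crtam and Cd8b1 in Cd4-detected cells lay under 10 CPM. They passed the filter on low values through the other set, so their direction was favoured by the filter.

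The 5 regulatory T cell markers, all detected in both sets, summed to 2042 to 3203 CPM per brain in Cd4-detected and 172 to 490 CPM in Cd8a-detected cells. Of 8 NK markers 7 were detected in each set, with sums of 0 to 76.8 CPM in Cd4-detected cells (Klra4 at 0) and 149 to 1298 CPM in Cd8a-detected cells (Klra8 at 0). Dendritic cell markers summed to 273 to 1478 CPM, with 0 of 10 at zero, against 124 to 397 CPM, where Flt3, Xcr1, Clec9a and Zbtb46 were at 0. Median raw UMIs were 5909.5 in Cd4-detected and 7307 in Cd8a-detected cells. The part of NK and dendritic RNA and of depth in the S1pr1 and Il7r differences was not tested. With Foxp3-detected cells left out, the S1pr1 log2 fold change was 1.74 (limma adjusted p = 0.000378) and that of Il7r 1.06 (limma adjusted p = 0.00334).

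The Il7r call was lost without the first homozygous brain (0.73, limma adjusted p = 0.0585) and among cells of 3000 to 10000 raw UMIs (0.70, limma adjusted p = 0.0537). Without the limma trend the adjusted p was 0.0996 for S1pr1 and 0.200 for Il7r, and without the filter on low values 0.0769 and 0.109. Without the first or the second homozygous brain, 185 or 179 genes were called in place of 353.

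Within Cd4-detected cells Tcf7, S1pr1 and Lef1 were lower in cells with a Foxp3 UMI. The 70 Foxp3-detected cells had a median of 10317 raw UMIs and the 140 others 5131, and with 8 to 27 Foxp3-detected cells per brain the values are given without a test. Tcf7 read 13.0, 28.2, 0 and 32.6 CPM in Foxp3-detected cells, against 209, 155, 168 and 193 CPM in the other Cd4-detected cells of the same brains. S1pr1 read 19.5, 9.39, 0 and 41.5 CPM in Foxp3-detected cells, against 273, 88.1, 252 and 239.6 CPM. The sets did not overlap for either gene. The share of all genes without overlap, or lower in each brain, was not computed for this split. Lef1 had 32.5, 18.8, 10.6 and 17.8 CPM in Foxp3-detected cells, against 72.0, 25.9, 57.4 and 80.6 CPM, lower in each brain. Ccr7 was lower in 3 of 4 brains, with 68.3, 159.6, 52.9 and 5.92 CPM in Foxp3-detected cells, against 93.6, 129.5, 57.4 and 101 CPM. Il7r averaged 290 ± 93.5 CPM in Foxp3-detected and 620 ± 273 CPM in the other Cd4-detected cells (SD, n = 4 brains). Bach2 averaged 6.17 ± 8.85 and 13.1 ± 10.8 CPM in the same order.

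The members were then set against Tcf7 itself. Among Cd4- or Cd8a-detected cells, those with a Tcf7 UMI carried more S1pr1, Ccr7, Lef1 and Il7r than those without, and less of the genes of effector function, cell cycle and regulatory T cells. The split gave 204 Tcf7-detected cells (36 and 28 in homozygous, 22 and 118 in heterozygous brains) and 253 Tcf7-undetected cells (58 and 37 in homozygous, 28 and 130 in heterozygous brains). A cell without a Tcf7 UMI may still express the gene. Median raw UMIs were 6236.5 in Tcf7-detected and 7185 in Tcf7-undetected cells.

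S1pr1 stood at 185, 75.0, 274 and 198 CPM in Tcf7-detected cells, against 38.0, 32.3, 21.7 and 48.1 CPM in Tcf7-undetected cells, again with the 2 homozygous brains first. The sets did not overlap, and the log2 fold change was 2.01 (SE 0.27, limma adjusted p = 0.000967). For this split, the share of all genes without overlap was not computed, so overlap here and below only describes the values. Ccr7 stood at 143, 204, 149 and 189 CPM in Tcf7-detected cells, against 102, 76.2, 18.6 and 47.4 CPM in Tcf7-undetected cells. These sets did not overlap either, and its log2 fold change was 1.51 (SE 0.26, limma adjusted p = 0.00400).

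Lef1, the close relative of Tcf7, stood at 70.4, 59.96, 90.1 and 105 CPM in Tcf7-detected cells and at 36.6, 37.0, 37.3 and 32.0 CPM in Tcf7-undetected cells. Every Tcf7-detected value exceeded every Tcf7-undetected one (log2 fold change 0.97, SE 0.21, limma adjusted p = 0.0186). Il7r stood at 539.5, 339, 737 and 441 CPM in Tcf7-detected cells and at 237, 286, 509.5 and 172 CPM in Tcf7-undetected cells. It was higher in each brain although the sets overlapped (log2 fold change 0.80, SE 0.16, limma adjusted p = 0.00984). Bach2 averaged 18.3 CPM in Tcf7-detected and 5.81 CPM in Tcf7-undetected cells, was higher in 4 of 4 brains and did not pass (log2 fold change 0.83, limma adjusted p = 0.129).

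Thus 4 of the 5 other genes were higher, where 4.77% of all genes were called (1.71% higher and 3.06% lower). These 4 had the same sign in every brain, as did 25.2% of all genes. Bach2, under 10 CPM in Tcf7-undetected cells, passed the filter on low values through the Tcf7-detected cells, so its direction was favoured by the filter. The median over the 5, Bach2 included, was 0.97, against -0.09 over all genes. Of all calls 112 were higher and 200 lower, and with median-ratio scaling 165 and 133.

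**Figure D3:**
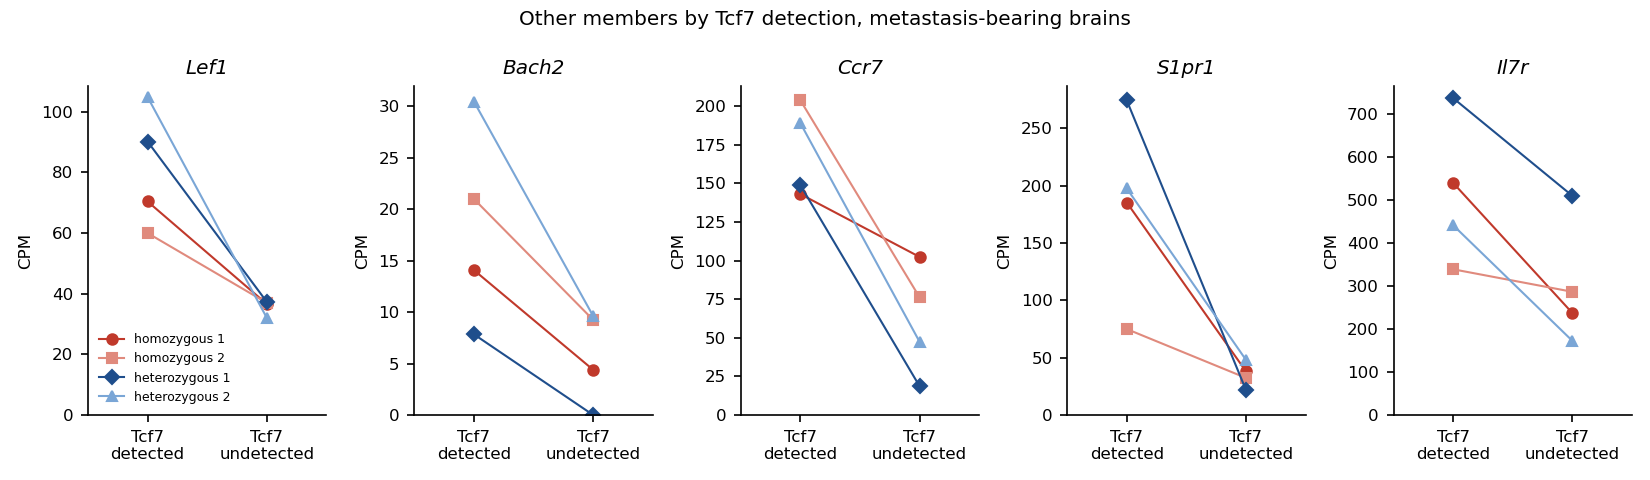
CPM of the other 5 genes in Tcf7-detected and Tcf7-undetected cells among Cd4- or Cd8a-detected cells of metastasis-bearing brains, with a line joining the sets of each brain. The Tcf7-detected end is the higher one for each gene in each of the 4 brains.

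Other genes of quiescence and recirculation moved the same way in part. Of 23 tested, 7 were higher and 1 lower in Tcf7-detected cells, with a list median of 0.42. Dapl1 averaged 77.4 CPM in Tcf7-detected and 8.86 CPM in Tcf7-undetected cells (log2 fold change 2.34), Satb1, a chromatin organiser, 212 against 94.0 CPM (1.08), Slamf6, a surface receptor of progenitor-like T cells, 113 against 40.5 CPM (1.28), and Klf2, a factor that drives S1pr1 in T cells, 930.0 against 449 CPM (0.95). Dapl1, under 10 CPM in Tcf7-undetected cells, passed the filter on low values through the Tcf7-detected cells, so its direction was favoured by the filter. Outside the list, Klf3 (1.60) and Tnfsf8 (1.43) were among the largest rises.

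Of 24 effector genes, 14 were lower and 0 higher in Tcf7-detected cells, with a median of -0.97. Gzmb, granzyme B, averaged 171 CPM in Tcf7-detected and 1259 CPM in Tcf7-undetected cells (log2 fold change -2.85, limma adjusted p = 9.14e-09), and Ifng, interferon gamma, 42.5 against 432 CPM (-2.68). Id2, a factor of effector differentiation, was lower by -1.14, S100a4 by -1.01 and Lgals1 by -1.03.

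Of 11 inhibitory receptor and exhaustion genes 6 were lower and 0 higher, with a median of -1.21. Havcr2 (TIM-3) averaged 3.53 against 50.01 CPM, Tnfrsf9 (4-1BB) 62.2 against 282 CPM and Ctla4 221 against 514 CPM. Havcr2, under 10 CPM in Tcf7-detected cells, passed the filter on low values through the Tcf7-undetected cells, so its direction was favoured by the filter. Of 11 residency genes 2 were lower, Cxcr6 at 103 against 248 CPM (-1.11) and Itgae, the CD103 integrin chain, at 11.7 against 43.6 CPM (-1.19), and 0 were higher (median -0.42). Of 11 regulatory and activated CD4 genes 7 were lower and 0 higher (median -1.28), with Foxp3 at 10.5 against 86.2 CPM (-2.26), Il2ra at -2.51 and Tnfrsf4 at -2.77. Of 10 cycling genes 7 were lower and 0 higher (median -1.31), with Top2a at 52.3 against 141 CPM (-1.45), Pclaf at -2.19 and Cdk1 at -1.42.

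**Figure D4:**
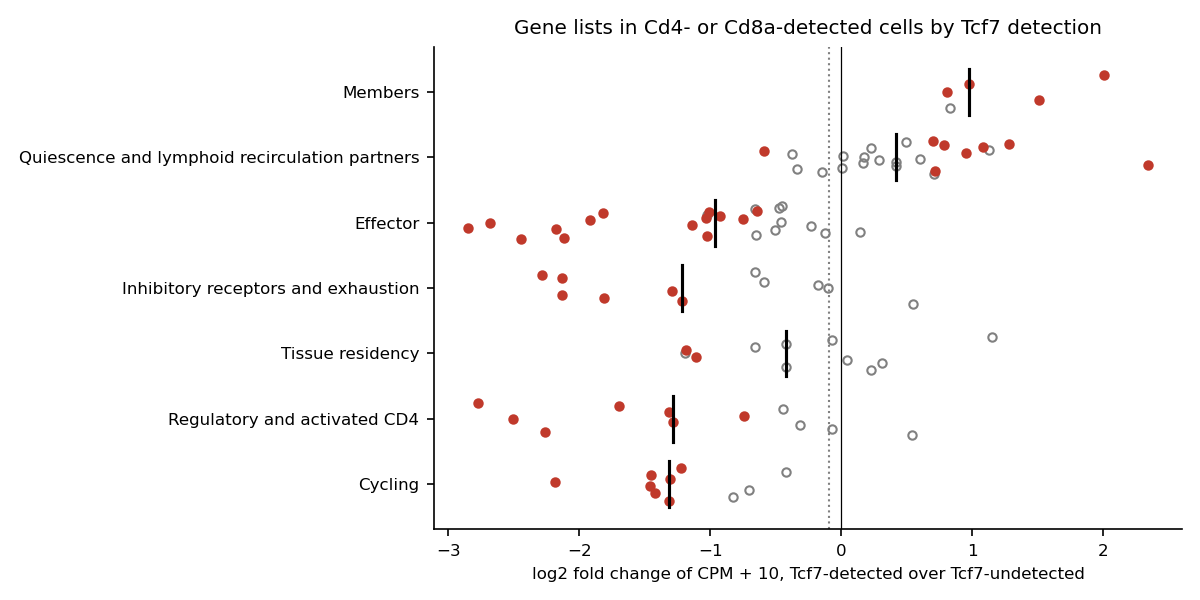
Log2 fold change of the tested members and of each tested gene of 6 gene lists, Tcf7-detected minus Tcf7-undetected cells of metastasis-bearing brains. Filled points passed a limma adjusted p of 0.05, black bars are list medians and the dotted line is the median of all genes (-0.09); effector and inhibitory lists have medians of -0.97 and -1.21 and 0 filled points above 0.

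All 5 regulatory T cell markers were detected in both sets and summed to 298 to 733 CPM per brain in Tcf7-detected and 1494 to 2644 CPM in Tcf7-undetected cells. The 6 cycling markers, also all detected, summed to 108 to 553 CPM in Tcf7-detected against 454 to 1351 CPM. NK markers summed to 19.6 to 307 CPM in Tcf7-detected and 87.0 to 1308 CPM in Tcf7-undetected cells, where Klra8 and Klra4 were at 0. The 9 T cell markers summed to 3954 to 6110 CPM against 5251 to 7108 CPM. The part of cycling and NK RNA in the result was not tested. With Foxp3-detected cells left out, S1pr1 had a log2 fold change of 1.81 (limma adjusted p = 0.00128), Ccr7 1.87 (0.0108) and Il7r 0.76 (0.0164), while Lef1 at 0.90 no longer passed (limma adjusted p = 0.0618); 136 genes were called in place of 312.

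Without the limma trend 1 gene was called, and without the filter on low values 10, and the calls of all 4 members were lost in both. Lef1 lost its call without the first heterozygous brain (limma adjusted p = 0.0515), the second heterozygous (0.141) or the first homozygous one (0.0577), and Il7r without the first homozygous brain (0.0627), which also left 170 genes called. Over all T-like cells Il7r did not pass (log2 fold change 0.18, limma adjusted p = 0.190), whereas Bach2 passed (0.95, limma adjusted p = 0.0136).

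Trdc-detected cells without Cd4 and Cd8a were set against the 431 Cd4- or Cd8a-detected cells that held no Trdc UMI, which leaves out 26 of the 457. They had more Il7r than these Trdc-undetected cells, at 894 ± 44.3 against 297 ± 45.0 CPM, and less Ccr7, at 14.3 ± 5.5 against 126 ± 8.9 CPM (SD, n = 3 brains). The comparison used the 3 brains with at least 20 cells in each set, because the first heterozygous brain gave 9 Trdc-detected cells. Ccr7 stood at 13.6, 9.09 and 20.1 CPM in Trdc-detected cells, against 121, 136 and 120.1 CPM in the Trdc-undetected cells, in 2 homozygous brains and 1 heterozygous brain. Its log2 fold change was -2.50 (SE 0.19, limma adjusted p = 1.06e-05). Il7r stood at 858, 943 and 879.9 CPM in Trdc-detected cells, against 348, 265 and 277 CPM in the Trdc-undetected cells (log2 fold change 1.57, limma adjusted p = 3.83e-06). Neither gene's sets overlapped in these 3 brains, but the share of all genes without overlap was not computed for this comparison. With the 26 cells kept, the log2 fold changes were -2.46 for Ccr7 and 1.45 for Il7r (limma adjusted p = 5.03e-06 and 5.93e-07).

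Both TCF family genes were also lower in Trdc-detected cells. Tcf7 stood at 79.5, 54.5 and 85.6 CPM in Trdc-detected cells and at 108, 105 and 129 CPM in the Trdc-undetected cells (log2 fold change -0.59, limma adjusted p = 0.0128). Lef1 stood at 36.3, 12.1 and 34.8 CPM in Trdc-detected cells, against 49.7, 48.4 and 63.8 CPM in the Trdc-undetected cells (log2 fold change -0.83, limma adjusted p = 0.0243). S1pr1 stood at 76.1, 54.5 and 117 CPM in Trdc-detected cells and at 96.7, 49.7 and 124 CPM in the others, and did not pass (log2 fold change -0.09, 95% interval -0.40 to 0.21, limma adjusted p = 0.718). Bach2 had a mean under 10 CPM and was not tested with these 3 brains. Without the filter its log2 fold change was -0.74 (limma adjusted p = 0.154), without the first homozygous brain -0.82 (0.0495) and without the second homozygous brain -0.55 (0.212).

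Of the 5 genes tested, 1 was higher and 3 were lower, where 16% of all genes were called (9.4% higher and 6.61% lower), and 4 had the same sign in every brain, as did 48.9% of all genes. The first heterozygous brain, which was left out, differed from the others in Il7r, with 586 CPM in its 9 Trdc-detected and 575 CPM in its 49 Trdc-undetected cells, while Ccr7 read 0 and 74.3 CPM. With all 4 brains in the fit, Il7r had a log2 fold change of 1.18 (limma adjusted p = 0.0217) and Ccr7 -2.65 (0.000300), Tcf7 at -0.44 (0.168) and Lef1 at -0.69 (0.146) did not pass, and 512 genes were called. The Tcf7 call was lost without the second heterozygous brain (limma adjusted p = 0.0825) or without the limma trend (0.0706), and that of Lef1 without that brain (0.115), without the second homozygous one (0.0760), without the trend (0.0808) or without the filter (0.0801); 626 genes were called without the second heterozygous brain, in place of 1051, where 2 brains leave a single degree of freedom.

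Of 22 genes of quiescence and recirculation 2 were higher and 7 lower in Trdc-detected cells (median -0.22, all genes 0.03), with Cd28 at 21.7 against 254 CPM (log2 fold change -3.11), Cd27 at 29.3 against 139 CPM (-1.95) and Slamf6 at 4.99 against 71.0 CPM (-2.44). Of 10 residency genes 5 were higher and 3 lower (median 0.52), with Itgae at 134 against 14.6 CPM (2.53), Cxcr6 at 681 against 176 CPM (1.94) and Xcl1 at 105 against 432.5 CPM (-1.99). Of 24 effector genes 3 were higher and 16 lower (median -1.31), with Gzmb at 129.6 against 823 CPM (-2.67). Of 11 inhibitory receptor and exhaustion genes 1 was higher and 8 lower (median -1.41), with Lag3 at 2.43 against 88.9 CPM. Of 11 regulatory and activated CD4 genes 3 were higher and 6 lower (median -0.49), with Rora, a factor of interleukin 17-producing cells, at 401 against 126 CPM (1.58). Of 10 cycling genes 0 were higher and 10 lower (median -1.34). Largest among the rises were Cd163l1, a scavenger receptor of gamma-delta T cells (514 against 2.27 CPM), Tcrg-C1, a gamma chain gene (692 against 8.65 CPM), and Il17a, interleukin 17A (1516 against 48.7 CPM). Slamf6 and Lag3 in Trdc-detected cells, and Cd163l1 and Tcrg-C1 in the Trdc-undetected cells, lay under 10 CPM. They passed the filter on low values through the other set, so their direction was favoured by the filter. The 7 gamma-delta T cell markers summed to 3615 to 6002 CPM per brain in Trdc-detected and 22.9 to 168 CPM in the Trdc-undetected cells, which were chosen without Trdc, itself one of the 7. Median raw UMIs were 4865.5 in Trdc-detected and 6500 in the Trdc-undetected cells, whose part was not tested.

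Between genotypes no gene passed in any set of T-like cells. Limma called 0 of 6524 genes in all T-like cells (0% of genes tested; 297 at an unadjusted p under 0.05), 0 of 6592 in Cd4-detected (0%; 295) and 0 of 6423 in Cd8a-detected cells (0%; 256). So 0 genes of the 6 lists passed in these 3 fits. In all T-like cells S1pr1 stood at 93.4 and 63.5 CPM in homozygous and at 131 and 116 CPM in heterozygous brains (log2 fold change -0.61, 95% interval -0.97 to -0.25, limma adjusted p = 0.693). Tcf7 stood at 111 and 77.6 CPM in homozygous and at 124 and 115 CPM in heterozygous brains (-0.33, limma adjusted p = 0.972). Lef1 had 48.9 and 38.0 CPM in homozygous and 66.3 and 54.9 CPM in heterozygous brains. Bach2 had 5.88 and 8.14 CPM in homozygous and 12.7 and 18.1 CPM in heterozygous brains.

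Ccr7 had 71.3 and 75.4 CPM in homozygous and 69.7 and 68.9 CPM in heterozygous brains, and Il7r 605 and 623 CPM in homozygous and 622 and 545 CPM in heterozygous brains. The genotypes did not overlap for Tcf7, Lef1, Ccr7 and S1pr1, while 33.1% of all genes did not overlap. They did not overlap for Bach2 either, which passed the filter on low values only through the heterozygous brains. Trdc-detected cells made up 33.8 and 37.7% of T-like cells in homozygous and 9.80 and 42.6% in heterozygous brains. Among Trdc-undetected cells the S1pr1 log2 fold change was -0.49 (limma adjusted p = 0.986).

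In Cd4-detected cells S1pr1 averaged 100.1 CPM in homozygous and 185 CPM in heterozygous brains (log2 fold change -0.93, limma adjusted p = 0.972), and in Cd8a-detected cells 44.4 and 61.0 CPM (-0.37, limma adjusted p = 0.988). The genotypes did not overlap for S1pr1, Tcf7 and Ccr7 in Cd4-detected cells, where 32.7% of all genes did not, and for S1pr1, Tcf7 and Lef1 in Cd8a-detected cells, where 31.6% did not. Whether the difference between Cd4- and Cd8a-detected cells depended on genotype was tested as an interaction in limma, which called 0 of 6555 genes (259 at an unadjusted p under 0.05); the smallest unadjusted p among the 6 genes was 0.0731, for Il7r. The second heterozygous brain weighed on these counts, although leaving it out sets 2 homozygous brains against 1 heterozygous brain, which is assumed to vary like them. Without it 240 genes were called in all T-like cells, among them S1pr1 (-0.69, limma adjusted p = 0.00135), and 366 in Cd8a-detected cells; without the first heterozygous brain, which leaves the same numbers, 67 and 17 were called. The second heterozygous brain had 27.0% of its cells in the T-like cluster, against 7.53 to 10.2% in the other brains.

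**Figure D5:**
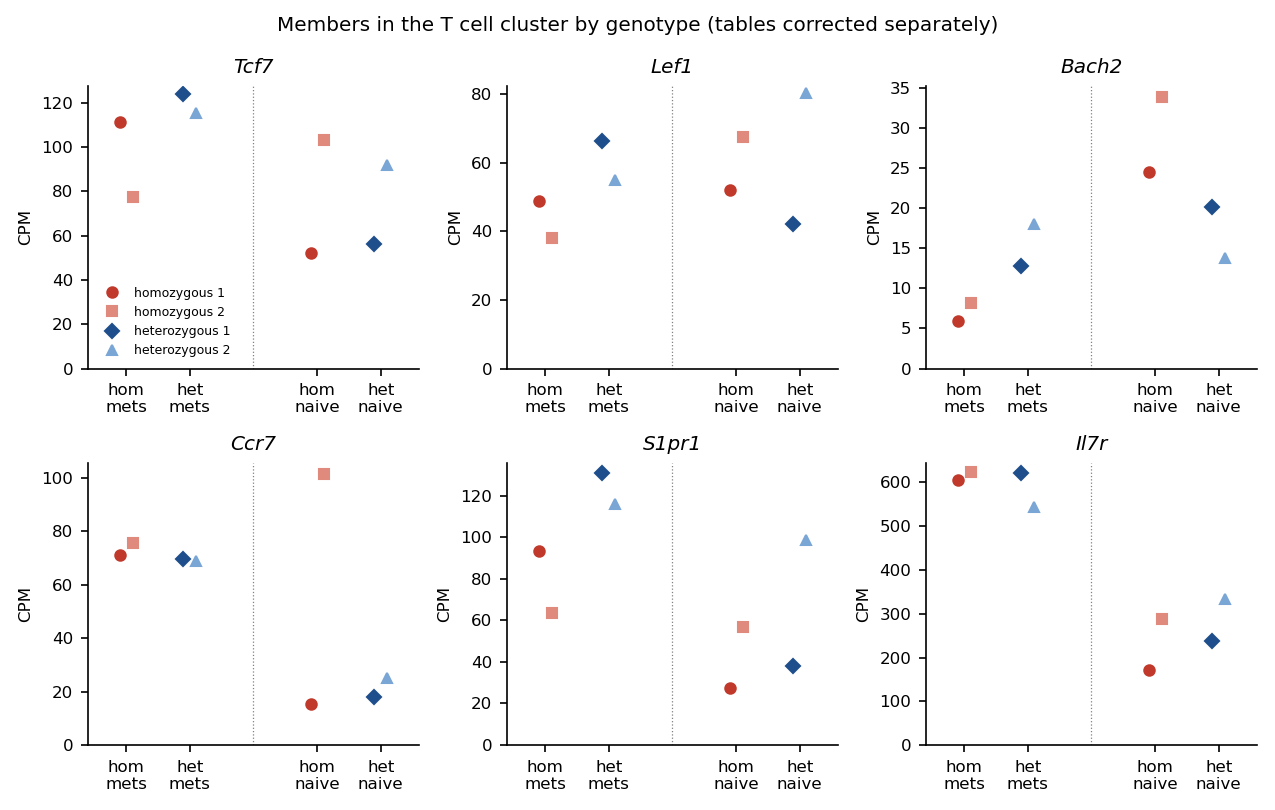
CPM of the 6 genes per brain in the T cell cluster, homozygous left of heterozygous, for metastasis-bearing (T-like) and naive (T/NK-like) brains. In metastasis-bearing brains S1pr1 is 63.5 and 93.4 CPM in homozygous and 116 and 131 CPM in heterozygous brains; the states carry separate depth corrections and were not compared by a test.

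Metastasis-bearing and naive brains can only be set side by side, since each table had its own depth correction and the naive cluster holds NK cells. Il7r averaged 599 ± 36.9 CPM in T-like cells of metastasis-bearing brains and 257 ± 69.3 CPM in T/NK-like cells of naive brains (SD, n = 4 each). Tcf7 averaged 107 ± 20.3 and 75.9 ± 25.5 CPM in the same order, Lef1 52.0 ± 11.8 and 60.6 ± 16.8 CPM, and Bach2 11.2 ± 5.39 and 23.1 ± 8.43 CPM. S1pr1 averaged 101 ± 29.3 CPM in metastasis-bearing and 55.4 ± 31.3 CPM in naive brains. In naive homozygous brains Tcf7 read 52.1 and 103 CPM, and in naive heterozygous brains 56.2 and 91.8 CPM, so these genotypes overlapped.

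The naive brains held 27 Cd4-detected and 41 Cd8a-detected cells, too few for a test per brain. Of these, Tcf7-detected cells had more S1pr1, Lef1 and Il7r than Tcf7-undetected cells in 4 of 4 brains and more Ccr7 and Bach2 in 3 of 4, with 5 to 14 cells per brain and set. Trdc-detected cells of naive brains had more Il7r than Cd4- or Cd8a-detected cells in 4 of 4 brains, without overlap, with 9 to 23 cells per brain and set. They had less Tcf7, Lef1, Ccr7, S1pr1 and Bach2 in 4 of 4 brains, without overlap for Tcf7 and Lef1. The share of all genes with the same direction in every brain, or without overlap, was not computed in naive brains. These counts are therefore a description and not a result about these genes. Endothelial-like cells of naive brains averaged 122 ± 25.0 CPM for Lef1 and 307 ± 130.0 CPM for S1pr1 (SD, n = 3 brains), above T/NK-like cells for both.

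The genes most like each member were sought over the 10 clusters of the metastasis-bearing table by Pearson correlation of log2(CPM + 10), among 6331 genes of at least 50 CPM in some cluster. Tcf7 was most like Zap70 (r = 0.94), the kinase of the T cell receptor, then Ppp1r16b (0.91) and Pcif1 (0.91). Il7r was most like Ctla4 (0.93), Cd3d (0.91) and Trac (0.91), an inhibitory receptor and parts of the T cell receptor complex. S1pr1 was most like Foxo1 (0.92), a forkhead factor of quiescent cells, then Trp53i11 (0.90) and Tmem64 (0.88). Lef1 was most like Mllt3 (0.93), Lats2 (0.91) and Kbtbd11 (0.90), Bach2 most like the immunoglobulin gene Ighm (0.89), and Ccr7 most like Chfr (0.82). The clusters share 1 preparation and differ in depth, so these correlations describe 10 points without a test.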

How the data were processed

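The authors deposited, per the file headers and values, 1 table per state of natural log values, ln(1 + UMIs after a depth correction) for each gene and cell; turned back from the log, 100% of nonzero values were whole numbers at a relative tolerance of 1e-06. The deposited cell metadata gave raw UMI counts, hashtags, clusters and antibody gates. Cell Ranger 3.1, Seurat 3.1.1 and mm10 are named per the submitters' processing notes. Each table had its own correction, so no test crosses them.

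Barcodes in both tables were dropped, clusters were named from marker lists, and all cells carried the authors' singlet label, with no further doublet call. Brains (1 mouse each) were the replicates. Detection of a gene in a cell, and each split by it, was taken from corrected UMIs above 0. Corrected UMIs were summed per brain and cell set, scaled to 1000000 (CPM) and taken as log2(CPM + 10). Genes with a mean CPM above 10 entered limma (version 3.58.1, R 4.3.3; lmFit, then eBayes with a trend), with brain as a block for sets of the same brains, with a Benjamini-Hochberg adjusted p under 0.05 over all genes. The block pairs cells of the same brain. The mean for the filter was taken over both sets. A gene under 10 CPM in 1 set thus entered through the other set, which favoured its direction. Genes that chose the cells were left out of the counts. A minimum of 20 cells per brain and set was lowered to 10 for Cd8a-detected cells after seeing the data, because 1 brain had 19. The planned Tcf7 splits within Cd4- and Cd8a-detected cells had too few cells, so both were joined; this comparison, that of Trdc-detected cells and the fits without Foxp3- or Trdc-detected cells or with other Trdc sets were also added after seeing the data. The steps were tested on simulated data. Beside the 6 genes, the text names from those past the threshold in each list the 4 with the smallest p, and the 5 largest rises and falls with 1 sign in every brain, or some of these; likeness gives up to 3 genes.

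The members, lists and tests were chosen with earlier results of these data known. Python 3.11.15, numpy 2.4.6, pandas 2.3.3, scipy 1.17.1 and matplotlib 3.10.9 did the rest.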

Additional observations from a re-analysis of the deposited data

Results flagged for a closer look

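Ccr7 in T/NK-like cells of naive brains had 1 brain far from the others. It read 15.3 and 101 CPM in the homozygous and 18.1 and 25.2 CPM in the heterozygous brains, and the gap from the second homozygous brain to the next was over Dixon's critical value for 4 samples. Of 24 groups of brains tested this was the only one, and chance gives about 1 in 20. The second homozygous brain had 57 Ccr7 UMIs in 12 of its 75 cells, with 17 in the highest cell. Its 7 B cell markers summed to 529 CPM there, against 104 to 377 CPM in the other brains, and it gave 76 of the 96 naive B-like cells. Their part in the value was not tested.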

How the results depend on the processing

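Over 34 fold changes of the 6 genes and 428 alternatives, 394 kept their side of the threshold, 29 lost a call and 5 gained one. In 0 did the sign change with a call on either side. A change of sign between values that did not pass was counted among the 394. For example, Tcf7 between Cd4- and Cd8a-detected cells went from 0.05 to as low as -0.15. Causes were not tested. Between Cd4- and Cd8a-detected cells 353 genes were called, against 224 with a pseudocount of 1, 94 without the filter, 70 without the trend, 232 among cells of 3000 to 10000 raw UMIs, 214 without Foxp3-detected cells, 287 without the replicate block and 179 to 293 without 1 brain. With Tcf7 detection 312 were called, against 201 with a pseudocount of 1, 10 without the filter, 1 without the trend, 136 without Foxp3-detected cells, 240 without the block (which ended the Il7r call, limma adjusted p = 0.108) and 170 to 233 without 1 brain. For Trdc-detected cells 1051 were called, against 617 without the trend, 512 with all 4 brains, 1023 without the block and 626 to 1068 without 1 brain.

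Between genotypes, where 0 were called, leaving out 1 brain gave 0 to 240 in all T-like, 1 to 9 in Cd4-detected and 5 to 366 in Cd8a-detected cells. No filter gave 9 and 12 in Cd4- and Cd8a-detected cells, the antibody gates 9 in Cd4-detected and cells of 3000 to 10000 raw UMIs 4 in Cd8a-detected cells. No paired analysis was possible because brain numbers do not pair genotypes. Among cells of that depth Ccr7 averaged 65.9 CPM and Il7r 649.9 CPM in T-like cells, against 71.3 and 599 CPM over all. Median-ratio scaling turned 64.3% higher calls between Cd4- and Cd8a-detected cells into 51.1%, and 35.9% with Tcf7 detection into 55.4%, with shifts of the median gene of -0.07 and 0.07. The planned separate Tcf7 splits were not run.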

Other observations

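Ccr7 also marked a small group of cells outside the T cell cluster. In the unnamed cluster of few UMIs in metastasis-bearing brains, 66 of 640 cells held a Ccr7 UMI. Summed over brains, these cells had Fscn1, an actin-bundling gene of migratory dendritic cells, at 1363 CPM, Il4i1 at 598 CPM, Socs2 at 370.4 CPM, the chemokine gene Ccl22 at 368 CPM and the antigen presentation gene Cd74 at 8910.0 CPM. The 574 cells without a Ccr7 UMI had Fscn1 at 87.9 CPM, Il4i1 at 0.456 CPM and Cd74 at 458 CPM. Median raw UMIs were 7836 in cells with and 2028 in cells without a Ccr7 UMI. In the cells with Ccr7, Il7r read 249 CPM and the T cell gene Cd3d 74.1 CPM. These genes were chosen after their values were seen, and no test was made.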
